A study of Mus musculus with 41 samples.

Results

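The genes described here are 9 genes of RNA sensing and interferon signalling: the cytoplasmic RNA helicases Ddx58, Ifih1 and Dhx58, the transcription factors Stat2, Irf9 and Irf7, the protease Usp18, and the large proteins Helz2 and Rnf213. They are 9 of the 22438 genes with ribosome footprint counts and of the 55385 genes with RNA values, and all of them are present in both tables. The genes were chosen from measured values of these data, taken here to be those of the mutant fibroblasts, so that the fibroblast comparisons below describe them and do not test them.

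Ddx58 (RIG-I) and Ifih1 (MDA5) bind viral or otherwise unusual double-stranded RNA in the cytoplasm and signal through the mitochondrial adaptor Mavs to kinases and factors that switch on type I interferon. Secreted interferon binds the receptor Ifnar1/Ifnar2, the kinases Jak1 and Tyk2 phosphorylate Stat2, which acts with Irf9 in the factor ISGF3, which binds interferon-stimulated response elements. The genes described here are themselves interferon-stimulated genes: sensors and factors are made in larger amounts once the pathway is on, while Usp18 damps signalling at the receptor.

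Ribosome profiling sequences the RNA fragments that ribosomes shield from nuclease, so that footprints on the coding sequence of a gene count the ribosomes on it. HBS1L and PELO form a complex that rescues stalled ribosomes, and UPF2 is a core factor of nonsense-mediated decay. The whole embryos were E8.5 (C57BL/6NJ), 3 pools of Hbs1l-/- embryos and 3 pools of Wildtype ones. The cerebella were taken at P14 from single C57BL/6J mice, 3 Atoh-Cre;Hbs1l cKO animals and 3 controls that carry the same Cre with wild-type Hbs1l. The Atoh1 promoter drives this Cre in granule cell precursors, so other cerebellar cells do not lose the floxed allele. The mutant cerebella and the Hbs1l MEFs carry 1 floxed and 1 null allele (fl/-), so that unrecombined mutant cells keep a single copy, while Pelo and Upf2 MEFs are fl/fl. The mutant cerebella and all MEFs, controls included, are also homozygous for the C57BL/6J mutation of the brain arginine tRNA gene n-Tr20. Mouse embryonic fibroblasts (MEFs, C57BL/6) were grown from single embryos and carried a tamoxifen-inducible CAG-Cre ER transgene, either alone (control) or with conditional alleles of Hbs1l, Pelo or Upf2. Control and mutant MEFs were all treated with tamoxifen, so the drug and the active Cre are common to both. Footprints were sequenced from 3 libraries of each mutant, each with 3 control libraries in its own batch, and RNA in another batch from other dishes, with 3 control, 3 Hbs1l-/-, 2 Pelo-/- and 3 labelled Upf2-/- libraries. The study left out 1 further Pelo RNA sample as an outlier.

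Footprint libraries held 2634480 to 7298812 counts in embryos, 10919139 to 22591768 in cerebella and 5782990 to 25607974 in MEFs, and RNA libraries held 22713643 to 86425762 estimated counts. CPM below are counts scaled to a common library size with edgeR's TMM factors. Unless stated otherwise, footprints were scaled within each comparison, a mutant with the controls of its batch. All RNA libraries were scaled together. Hbs1l and Pelo were low in their own mutants, with footprint log2 fold changes of -4.15 for Hbs1l and -3.78 for Pelo in MEFs, and of -3.60 for Hbs1l in embryos. In the libraries labelled Upf2-/-, Upf2 itself was higher: footprints measured 113 to 119 CPM against 49.2 to 58.3 CPM in the controls, and RNA 30.02 to 63.0 CPM against 15.7 to 21.4 CPM. These counts cover the whole gene and not the deleted part alone. Every direction given for this group is therefore that of libraries labelled Upf2-/-. Control MEF footprint libraries with the same number in the 3 batches differed by little more than counting noise (chi-square per gene 1.10 to 1.19, against 4.06 to 12.6 between different numbers of 1 batch), so the 3 footprint comparisons share their control cultures, and the 3 RNA comparisons share the same 3 control libraries. The fibroblast markers, 10 of 10, were detected in every MEF group, with summed footprints of 43770 CPM or more.

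An interferon-stimulated response element was searched in the promoters as GAAA, any 2 bases and GAAA again, on both strands, from 250 bases before to 50 bases after each start, in RefSeq sequence of GRCm38.p6. It is in 3.44% of all 32851 mouse promoters in that set, and in those of 3 of the 7 genes with an entry (Stat2, Ifih1 and Ddx58). Those of Irf9 (with 2 entries), Irf7, Helz2 and Rnf213 do not hold these letters in the window, and Dhx58 and Usp18 have no entry. Windows follow RefSeq starts. Those of Rnf213 (chromosome 11, 119389849 to 119390148), Irf9 and Stat2 do not hold the Gencode gene starts given below. The stretches around the matches are shown because these are the 3 members whose windows hold the element, with the matching letters in capitals (the element or its reverse complement).
Stat2, chr10:128270261-128270300, plus strand, upstream of the start: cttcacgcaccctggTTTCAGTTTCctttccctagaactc
Ifih1, chr2:62646206-62646233, minus strand, in the first transcribed bases: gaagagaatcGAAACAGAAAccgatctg
Ddx58, chr4:40239804-40239833, minus strand, at the start: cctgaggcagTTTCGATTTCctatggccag
Counted from the start, the match begins at base -222 in Stat2, at base 33 in Ifih1 and at base 3 in Ddx58. The STAT dimer element TTCNNNGAA, searched the same way, is in 8.30% of promoters and in none of the 8 of these genes. A match describes the letters in the window and was not tested for binding.

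Ddx58 (ENSMUSG00000040296.15, chromosome 4, 40203773 to 40239828 of GRCm38, minus strand) encodes the sensor RIG-I, which recognises 5′-triphosphate RNA. Its footprints were 38.0 to 51.1 CPM in the controls of the Hbs1l batch, and 117, 119 and 95.6 CPM in the Hbs1l-/- libraries. In Pelo-/- MEFs they measured 272, 242 and 288 CPM, and in the libraries labelled Upf2-/- 153, 118 and 73.1 CPM. No mutant library overlapped with the controls, and the means were 2.50-fold (Hbs1l-/-), 6.15-fold (Pelo-/-) and 2.71-fold (labelled Upf2-/-) those of their own controls. RNA of Ddx58 was 15.1, 21.5 and 21.3 CPM in the controls and 43.5, 57.0 and 38.8 CPM in Hbs1l-/- MEFs. The 2 Pelo-/- libraries had 19.7 and 18.01 CPM, within the range of the controls. Those labelled Upf2-/- had 17.97, 21.8 and 17.9 CPM, which overlapped with the controls. Ddx58 had the smallest footprint fold change of the 9 genes in each of the 3 mutants.

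Ifih1 (ENSMUSG00000026896.14, chromosome 2, 62595798 to 62646255, minus strand) encodes MDA5, which assembles along long double-stranded RNA. Control footprints lay between 6.65 and 11.3 CPM over the 3 batches. The Hbs1l-/- libraries had 53.8, 54.1 and 39.4 CPM, the Pelo-/- libraries 153, 128 and 173 CPM, and those labelled Upf2-/- 98.9, 66.4 and 38.5 CPM. The groups did not overlap with controls, and the Pelo-/- mean of 151 CPM was 16.5-fold that of its controls. RNA went another way in Pelo-/- MEFs: controls had 1.98, 3.40 and 3.03 CPM, Hbs1l-/- MEFs 6.35, 14.9 and 10.7 CPM, and Pelo-/- MEFs 1.43 and 1.26 CPM. Both Pelo-/- libraries lay under the lowest control, while every Hbs1l-/- library lay above the highest. RNA in the libraries labelled Upf2-/- (3.49, 5.26 and 3.31 CPM) overlapped with the controls.

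Dhx58 (ENSMUSG00000017830.15, chromosome 11, 100694884 to 100704271, minus strand) encodes LGP2, which lacks the signalling domains of the other sensors and modulates them. It was the lowest of the 9 in control MEFs, with 0.152 to 1.13 CPM of footprints. Hbs1l-/- libraries had 7.48, 9.55 and 4.89 CPM, Pelo-/- libraries 31.1, 24 and 48.7 CPM, and those labelled Upf2-/- 16.9, 11.8 and 5.10 CPM. The Pelo-/- mean was 59.6-fold that of its controls. The controls of Hbs1l-/- held 13, 2 and 2 counts, and the log2 fold change of 3.87 there was 5.35 without control replicate 1. RNA of Dhx58 was 7.92, 8.46 and 3.33 CPM in Hbs1l-/- MEFs against 0.471, 0.520 and 0.890 CPM in controls. The Pelo-/- values of 0.844 and 0.866 CPM were inside the control range, and the values labelled Upf2-/- (1.16, 2.02 and 1.62 CPM) were all above it.

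Stat2 (ENSMUSG00000040033.16, chromosome 10, 128270559 to 128292849, plus strand), which carries the activation domain of ISGF3, had 10.8 to 17.0 CPM of footprints in controls. The mutant values were 54.0, 61.8 and 43.6 CPM in Hbs1l-/-, 152, 127 and 183 CPM in Pelo-/- and 163, 105 and 60.7 CPM in the libraries labelled Upf2-/-. Stat2 was the only member whose Pelo-/- and labelled Upf2-/- footprint libraries overlapped. Its RNA was 7.53, 8.69 and 8.25 CPM in controls, 44.3, 45.7 and 25.2 CPM in Hbs1l-/- and 19.2, 29.6 and 27.0 CPM in the libraries labelled Upf2-/-. Both Pelo-/- RNA libraries (10.2 and 9.26 CPM) lay slightly above the controls, a log2 fold change of 0.26 (SE 0.12) that did not pass the threshold.

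Irf9 (ENSMUSG00000002325.15, chromosome 14, 55603571 to 55610030, plus strand) encodes the DNA-binding subunit of ISGF3. Footprints were 4.42 to 10.1 CPM in controls, 45.9, 56.3 and 46.7 CPM in Hbs1l-/-, 87.6, 83.7 and 98.7 CPM in Pelo-/- and 66.5, 57.4 and 37.8 CPM in the libraries labelled Upf2-/-. Its RNA was 4.09, 5.76 and 7.48 CPM in controls and 45.8, 51.4 and 37.2 CPM in Hbs1l-/-. The footprint means of Hbs1l-/- and Pelo-/- were 49.6 and 90.0 CPM, in ratio the closest of the 9 genes. RNA in the libraries labelled Upf2-/- (10.7, 20.9 and 19.5 CPM) and in Pelo-/- (9.68 and 8.05 CPM) was above the controls in every library, and the Pelo-/- difference did not pass the threshold (log2 fold change 0.60, SE 0.24).

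Irf7 (ENSMUSG00000025498.15, chromosome 7, 141262706 to 141266481, minus strand) is the factor that amplifies interferon transcription. Control footprints were 0.695 to 2.12 CPM. They reached 13.9, 16.1 and 10.5 CPM in Hbs1l-/-, 54.3, 42.3 and 67.2 CPM in Pelo-/- and 25.9, 16.6 and 10.2 CPM in the libraries labelled Upf2-/-. The Pelo-/- mean was 59.05-fold that of its controls. RNA of Irf7 was 24.3, 31.3 and 14.6 CPM in Hbs1l-/- against 0.894, 1.04 and 1.97 CPM in controls, a 17.98-fold difference of means. The Pelo-/- RNA libraries disagreed with each other, at 2.27 CPM (above the controls) and 0.866 CPM (below them), and those labelled Upf2-/- had 2.44, 5.67 and 6.53 CPM.

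Usp18 (ENSMUSG00000030107.10, chromosome 6, 121245906 to 121270917, plus strand) removes the ubiquitin-like protein ISG15 from its targets and blocks signalling at Ifnar2. It showed the largest footprint fold change of the 9 genes in each of the 3 mutants. The exception was Hbs1l-/- without control replicate 1, where Dhx58 reached 5.35 on the log2 scale. Usp18 ranged from 4.23 to 4.66 in Hbs1l-/- over the fits with a library left out. Footprints were 0.813 to 2.94 CPM in controls, 31.5, 40.9 and 21.1 CPM in Hbs1l-/-, 196, 159 and 217 CPM in Pelo-/- and 79.7, 47.0 and 17.9 CPM in the libraries labelled Upf2-/-. These are 22.1-fold, 109-fold and 31.1-fold the means of the respective controls. The log2 fold change in Pelo-/- was 6.78, and 7.37 without control replicate 3, which held 33 counts against 17 and 10 in the other controls. The RNA did not follow in Pelo-/- MEFs, with 1.03 and 0.736 CPM against 0.800, 0.721 and 0.941 CPM in controls. In Hbs1l-/- MEFs RNA was 19.5, 27.0 and 13 CPM, and in the libraries labelled Upf2-/- 1.22, 4.33 and 4.52 CPM, all above the highest control.

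Helz2 (ENSMUSG00000027580.17, chromosome 2, 181227615 to 181242027, minus strand) encodes a helicase that acts as a nuclear receptor coactivator. Footprints lay between 18.9 and 22.5 CPM in controls, the tightest control range relative to its mean. They were 80.0, 90.8 and 69.3 CPM in Hbs1l-/-, 204, 193 and 224 CPM in Pelo-/- and 125, 89.9 and 55.6 CPM in the libraries labelled Upf2-/-. RNA was 7.48, 10.3 and 9.97 CPM in controls, 30.4, 35.9 and 26.3 CPM in Hbs1l-/- and 14.8 and 15.5 CPM in Pelo-/-, so that both Pelo-/- libraries exceeded every control. In the libraries labelled Upf2-/- RNA was 10.28, 21.2 and 19.98 CPM, and the lowest of these was just under the highest control (10.29 CPM).

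Rnf213 (ENSMUSG00000070327.14, chromosome 11, 119393100 to 119487418, plus strand) encodes a very large AAA+ ATPase and ubiquitin ligase active against intracellular pathogens. Its footprints, 68.4 to 98.8 CPM in controls, reached 581, 667 and 411 CPM in Hbs1l-/-, 1746, 1518 and 1973 CPM in Pelo-/- and 889, 563 and 308 CPM in the libraries labelled Upf2-/-. The Pelo-/- mean was 20.3-fold that of its controls. Its RNA was 10.3, 22.7 and 19.8 CPM in controls, 90.5, 103 and 47.2 CPM in Hbs1l-/- and 36.1 and 33.7 CPM in Pelo-/-. RNA in the libraries labelled Upf2-/- (14.5, 25.0 and 22.0 CPM) overlapped with the controls, although the footprint mean was 7.31-fold higher there.

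**Figure D1:**
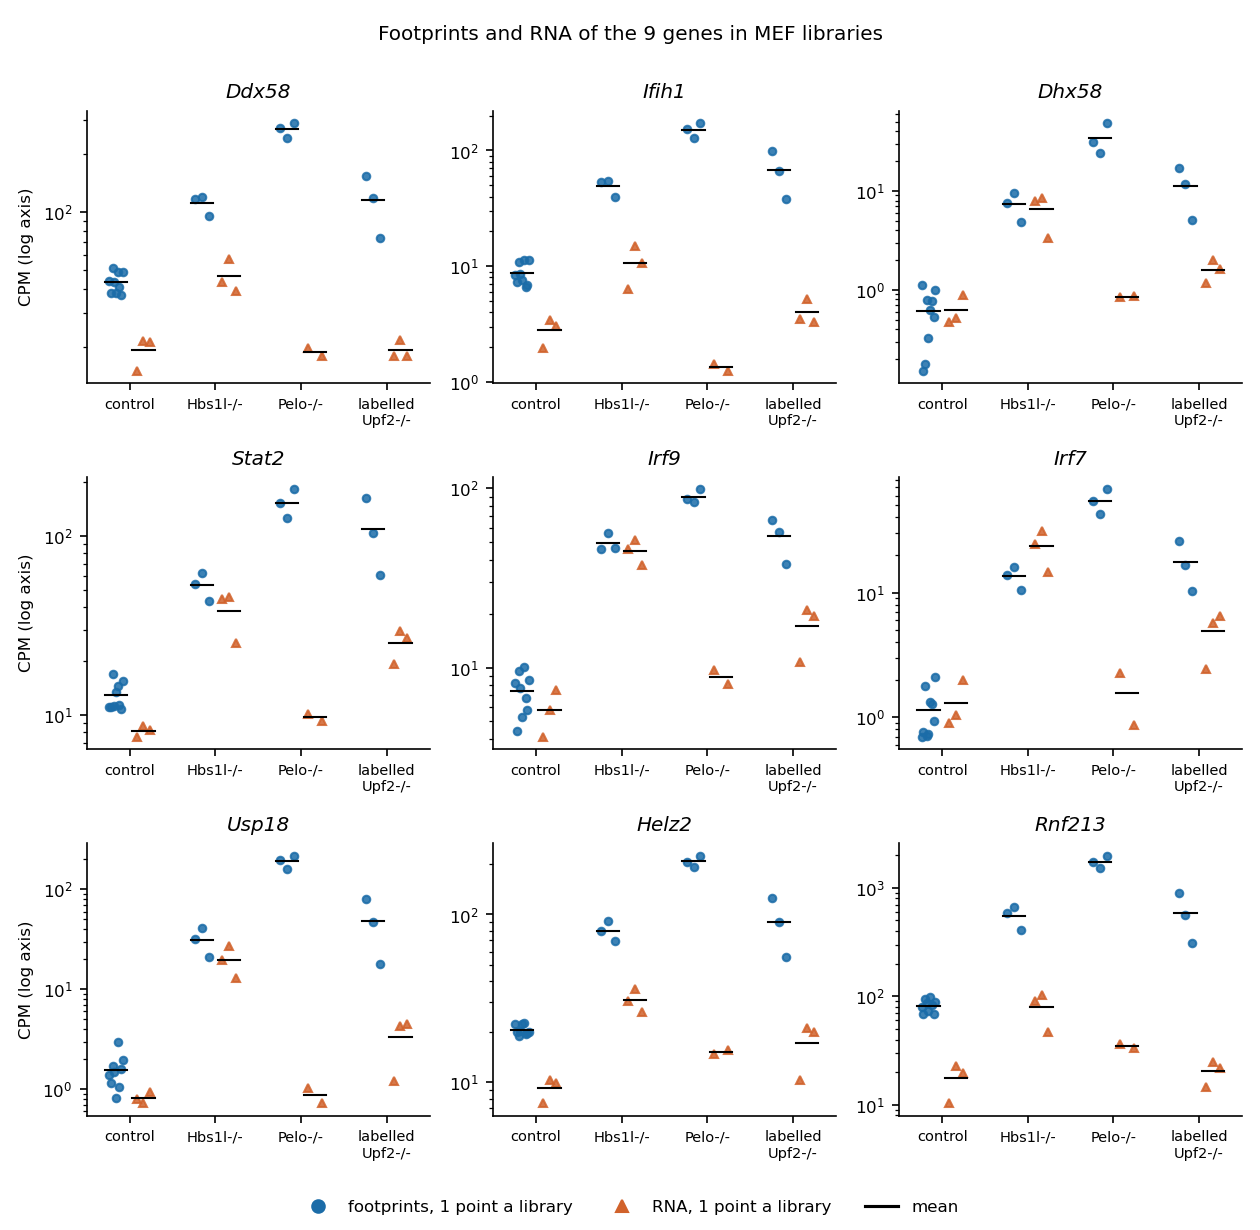
Footprints (circles) and RNA (triangles) of each gene in every MEF library, in CPM on a log axis, with the group mean as a bar. The control column holds the footprint libraries of all 3 batches. Footprints of all 9 genes lie highest in Pelo-/- MEFs on average, while RNA lies highest in Hbs1l-/- MEFs. Usp18 footprints go from 0.813 to 2.94 CPM in controls to 159 to 217 CPM in Pelo-/- MEFs.

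Counted over the 9 genes, footprints were called higher (edgeR's quasi-likelihood test, Benjamini-Hochberg adjusted p of at most 0.05 over all genes tested) for 9 of 9 in each of the 3 mutants. Of all genes tested, 17.4% were called higher and 16.7% lower in Hbs1l-/-, 22.9% and 21.2% in Pelo-/- and 22.3% and 21.1% in the libraries labelled Upf2-/-. Since the members were chosen on such values, nothing is read from these shares. The same holds for the MEF calls below on RNA and on footprints relative to RNA. The median footprint log2 fold change of the 9 genes was 2.75 (range 1.32 to 4.44) in Hbs1l-/-, 4.05 (2.62 to 6.78) in Pelo-/- and 3.03 (1.44 to 4.93) in the libraries labelled Upf2-/-, against medians of -0.01, 0.00 and 0.00 over all genes tested.

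The RNA counts differed by genotype. In Hbs1l-/- MEFs 9 of 9 were called higher (12.7% of all genes higher, 10.4% lower), with a median log2 fold change of 2.23 (1.26 to 4.55). In the libraries labelled Upf2-/- 6 of 9 were called higher (13.2% of all genes higher, 6.76% lower), with a median of 1.26, and the other 3 were Ddx58 (-0.02), Ifih1 (0.50) and Rnf213 (0.21). Helz2 lost its RNA call there without any one of the 3 control libraries or of replicates 2 and 3 labelled Upf2-/-, and Dhx58 without control replicate 1 or 2 or replicate 2 labelled Upf2-/-. In Pelo-/- MEFs 2 were called higher, Helz2 (0.72, SE 0.16) and Rnf213 (0.99, SE 0.29), and 1 lower, Ifih1 (-1.06, SE 0.28), where 15.5% of all genes were higher and 16.6% lower, and the median was 0.26. The Pelo-/- calls rest on 2 libraries. Without Pelo replicate 1, or without Pelo replicate 2, none of the 9 RNA differences was called, and the lone library left is then assumed to vary like the controls. Without control replicate 2 or control replicate 3 the RNA call on Ifih1 in Pelo-/- was lost, and without control replicate 3 that on Rnf213 as well, while Irf9 was then called (0.85, SE 0.22).

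The genotypes kept 1 order in mean footprint CPM with all libraries. For 9 of 9 genes the mean was highest in Pelo-/-, then in the libraries labelled Upf2-/-, then in Hbs1l-/-, then in controls. As log2 fold changes over their own controls, Hbs1l-/- was above the libraries labelled Upf2-/- for Dhx58 (3.87 against 3.85) and Irf7 (3.63 against 3.58). The remaining genes kept the order. Without replicate 1 labelled Upf2-/-, the fold change of that group was above that of Hbs1l-/- for Ifih1, Stat2 and Irf9 only. The Pelo-/- libraries were above all of those labelled Upf2-/- for 8 of the 9 genes, all except Stat2. The ranges of Hbs1l-/- and of the libraries labelled Upf2-/- overlapped for 9 of 9, and the lowest Hbs1l-/- library was above the highest control for 9 of 9. In RNA the order was led by Hbs1l-/- for 9 of 9, followed by the libraries labelled Upf2-/- for 7, by the controls for Ddx58 and by Pelo-/- for Rnf213. Footprint CPM of the mutants were scaled in separate comparisons, and differences between genotypes were not tested.

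**Figure D2:**
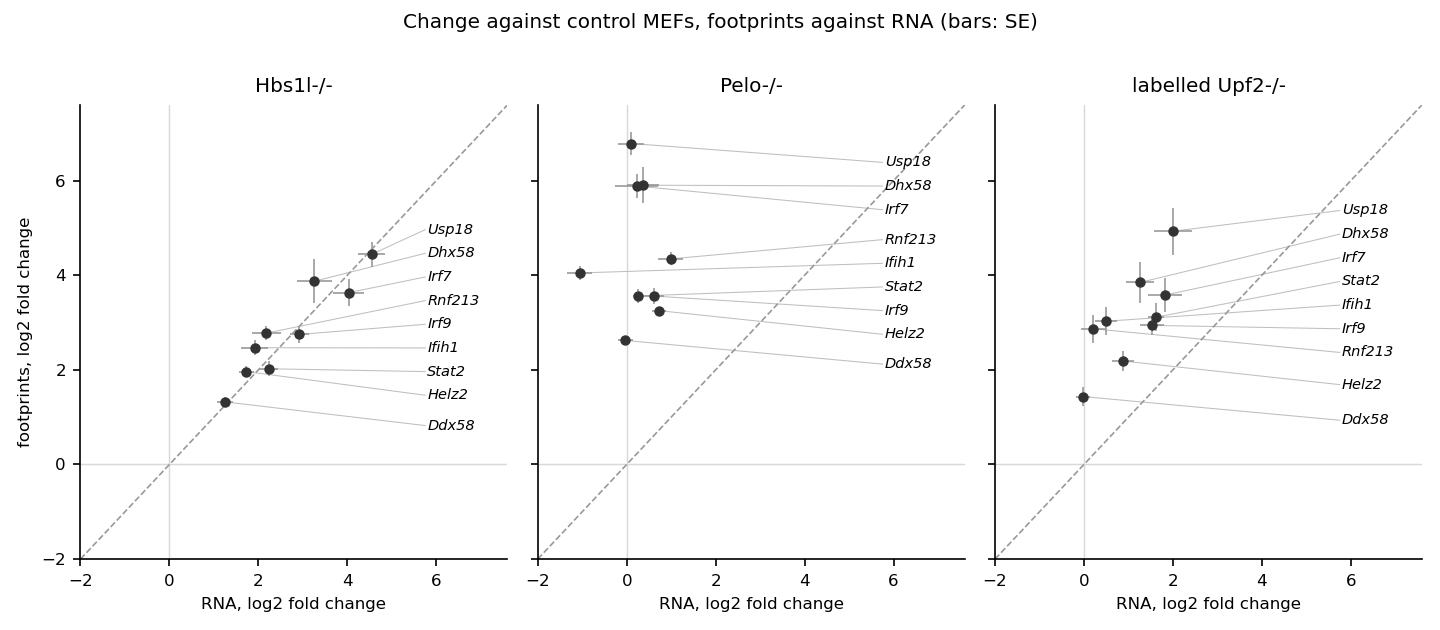
Log2 fold change of footprints (vertical axis) against that of RNA (horizontal axis) for the 9 genes in each mutant, with standard errors as bars and the line of equal change dashed. In Hbs1l-/- MEFs the genes lie along the line, in Pelo-/- MEFs they stand 2.62 to 6.78 high while RNA stays between -1.06 and 0.99, and in the libraries labelled Upf2-/- they lie between these patterns.

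Footprints relative to RNA (translation efficiency, TE) were compared by testing whether the genotype effect differed between the assays. For the 9 genes the calls are descriptions, since their choice was taken to rest on MEF values. In Hbs1l-/- MEFs 0 of the 9 genes changed by edgeR's test, 0 had an unadjusted p under 0.05 and 0 were called by DESeq2. Values ran from -0.35 (Irf7, SE 0.58) to 0.68 (Dhx58, SE 0.79, and 2.18 without footprint control replicate 1), and 0.0168% of all genes were called higher and 0.0168% lower. In Pelo-/- MEFs 9 of 9 were called higher, where 24.3% of all genes were higher and 20.4% lower. The increase was 2.56 (Helz2, SE 0.17), 2.67 (Ddx58, SE 0.20), 3.00 (Irf9), 3.32 (Stat2), 3.38 (Rnf213), 5.14 (Ifih1), 5.64 (Dhx58), 5.77 (Irf7) and 6.74 (Usp18, SE 0.46) on the log2 scale. The 3 genes with the fewest footprints in controls (Dhx58, Irf7 and Usp18) had the 3 largest values. That of Irf7 was 6.63 without Pelo-/- RNA replicate 1 and 5.18 without RNA control replicate 3, and that of Usp18 was 7.33 without footprint control replicate 3.

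In the libraries labelled Upf2-/- 9 of 9 were called higher in footprints relative to RNA (8.47% of all genes higher, 11.8% lower), with values from 1.29 (Helz2, SE 0.36) to 2.92 (Usp18, SE 0.76). Without RNA control replicate 3 only 4 of the 9 were called (Ddx58, Ifih1, Stat2 and Rnf213), and without any other library 7 to 9 were. Irf7 (1.79, SE 0.59) was not called by DESeq2. For the genes whose RNA was not called in these libraries, the interaction was 1.44 for Ddx58, 2.52 for Ifih1 and 2.64 for Rnf213. As plain ratios of mean CPM, footprints over RNA of Usp18 were 1.91 in controls, 1.57 in Hbs1l-/-, 216 in Pelo-/- and 14.4 in the libraries labelled Upf2-/-. For Ddx58 the ratios were 2.24, 2.38, 14.2 and 5.98 in the same order. Footprints and RNA came from different dishes and batches, so a change in translation and a difference between those cultures cannot be told apart here.

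The members moved together from library to library. Among the Pelo-/- footprint libraries, replicate 3 was highest and replicate 2 lowest for 9 of 9 genes, with summed footprints of 3271 and 2516 CPM. Among those labelled Upf2-/-, replicate 1 was highest and replicate 3 lowest for 9 of 9, with sums of 1619 and 606 CPM, a wider spread than in the other mutants. Among the Hbs1l-/- libraries, replicate 2 was highest for 9 of 9, in footprints (1117 CPM) and in RNA (374 CPM), and replicate 3 was lowest for 8 of 9 in each. In RNA labelled Upf2-/-, by contrast, replicate 1 was lowest for 7 of 9. Numbers of footprint and RNA libraries were not shown to mark the same cells. A set of 12 footprint points was scaled together, with the control libraries of a number summed over batches. Over these points, log CPM of the 36 pairs of members correlated with r between 0.936 and 0.998 (median 0.985). Over the 11 RNA libraries r was between 0.639 and 0.990 (median 0.895, lowest for Ifih1 with Rnf213). These points share libraries and genotypes, and the values are descriptions.

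Over the same points, the genes most like the mean of the 9 in footprints included Rtp4, Oasl2, Isg15 and Ifi44 (r from 0.996 to 0.998, of 12017 genes). In the 11 RNA libraries they were Irgm2, Bst2, Oas1a, Oasl2 and Lgals3bp (r from 0.988 to 0.992, of 12665 genes). Isg15, the ubiquitin-like protein that Usp18 removes, ran from 4.31 to 688 CPM over the footprint points.

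Per length, footprints of Usp18 became the densest of the 9 in Pelo-/- MEFs. With counts divided by coding length (1105 bases for Usp18, 15456 for Rnf213), Usp18 had 173 ± 26.7 CPM per kb in Pelo-/- (SD, n = 3) against 1.58 ± 0.98 in its controls. Rnf213 followed at 113 ± 14.7 against 5.56 ± 0.84, then Ddx58 at 96.2 ± 8.39 against 15.7 ± 1.98. Dhx58 was the sparsest in Pelo-/- MEFs, at 17.0 ± 6.24 against 0.285 ± 0.12. In controls Ddx58 was the densest of the 9 and Dhx58 the sparsest. In RNA, where TPM is already per length, Irf9 was highest in Hbs1l-/- MEFs at 21.5 ± 3.99 TPM, followed by Ddx58 at 15.5 ± 3.68, Irf7 at 14 ± 5.29 and Usp18 at 13.9 ± 5.04.

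Most of the TPM of the 9 genes in Hbs1l-/- MEFs was in protein-coding transcripts, from 75.8% on average for Ddx58 to 100% for Rnf213. Coding transcripts of Irf7 made up 87.4% to 97.9% of its TPM in the Hbs1l-/- libraries and 22.2% to 82.4% in controls, at 12.8 ± 4.69 against 0.512 ± 0.43 TPM. The only transcript of the 9 genes annotated as a target of nonsense-mediated decay, of Irf7, was at 0.227 ± 0.053 TPM in the libraries labelled Upf2-/- and 0.0787 ± 0.074 TPM in controls, and it ranged up to 0.931 TPM in Hbs1l-/-. Retained-intron transcripts of Stat2 took 24.3% to 29.9% of its TPM in the libraries labelled Upf2-/- and 16.1% to 25.8% in controls, which overlap. Transcript values are estimates that divide shared reads, and at under 1 TPM they carry few reads.

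In embryos without Hbs1l, 5 of the 9 genes had enough footprints to be tested and 0 changed (0 at an unadjusted p under 0.05, and 0 by DESeq2), where 0.92% of all genes were called higher and 0.955% lower. Ddx58 had 10.3, 15.9 and 9.43 CPM in Hbs1l-/- embryos and 8.30, 9.13 and 9.56 CPM in Wildtype ones, with a difference of 0.40 on the log2 scale (SE 0.32, adjusted p = 0.516 by edgeR). Stat2 (0.11, SE 0.33), Irf9 (0.24, SE 0.51), Helz2 (0.11, SE 0.41) and Rnf213 (0.00, SE 0.27) had adjusted p of 0.830 to 0.997 by edgeR. The groups overlapped for each of the 5 genes. Heart markers summed to 616 to 935 CPM in Hbs1l-/- and 1572 to 1630 CPM in Wildtype embryos (3 of 4 tested lower). Other embryo markers summed to 3310 to 8682 against 11510 to 14670 CPM (1 of 6 lower). Endothelial markers summed to 580 to 755 against 520 to 543 CPM (1 of 8 higher). Sums overlapped for fibroblast (2 of 9 lower) and macrophage markers (0 of 2 called). The part of these tissues in the members' values was not tested. Ifih1, Dhx58, Irf7 and Usp18 did not pass the filter on low counts, with means of at most 2.40 CPM. Irf7 was at 0 counts in 3 of the 6 embryo libraries, and a count of 0 allows up to 3. A difference of the size seen in MEFs, 3.63 on the log2 scale for Irf7, could not be assessed at that level.

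In the P14 cerebellum 9 of 9 genes were tested and 0 changed (0 at an unadjusted p under 0.05, and 0 by DESeq2), where 0.0554% of all genes were called higher and 0.00693% lower. Values ran from -0.63 (Irf7, SE 0.35, adjusted p = 0.482 by edgeR) to 0.01 (Irf9, SE 0.19, adjusted p = 0.990). Stat2 had the most footprints of the 9 there, with 30.7, 39.4 and 24.4 CPM in Atoh-Cre;Hbs1l cKO and 39.4, 35.9 and 30.4 CPM in control cerebella (-0.16, SE 0.18). The groups overlapped for 7 genes. The exceptions were Dhx58, with 1.34, 1.55 and 1.15 CPM against 2.00, 2.12 and 1.91 CPM (-0.59, SE 0.27, adjusted p = 0.391), and Irf7, with 0.740, 0.911 and 0.812 CPM against 1.75, 1.09 and 1.04 CPM, both lower in the mutant. Fewer cells of a type and fewer footprints per cell cannot be told apart in whole tissue. Hbs1l itself was at 14.5 ± 1.504 CPM against 40.8 ± 3.55 CPM in controls (SD, n = 3). The macrophage and microglia markers summed to 261 to 303 CPM in the mutant and 208 to 262 CPM in control cerebella, and overlapped. The Purkinje cell markers did not overlap and were lower in sum, at 4392 to 5904 CPM in the mutant and 6091 to 11840 CPM in control cerebella (median log2 fold change -0.92). Sums overlapped for granule cell markers (3450 to 4564 against 4050 to 5750 CPM, median -0.18), endothelial markers (321 to 357 against 323 to 494 CPM, median -0.32) and fibroblast markers (2305 to 3976 against 1983 to 5521 CPM, median -0.03). In these 5 lists 0 of 11, 0 of 4, 0 of 8, 0 of 8 and 0 of 10 tested markers were called, in the order given, and their part in the values of Dhx58 and Irf7 was not tested.

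**Figure D3:**
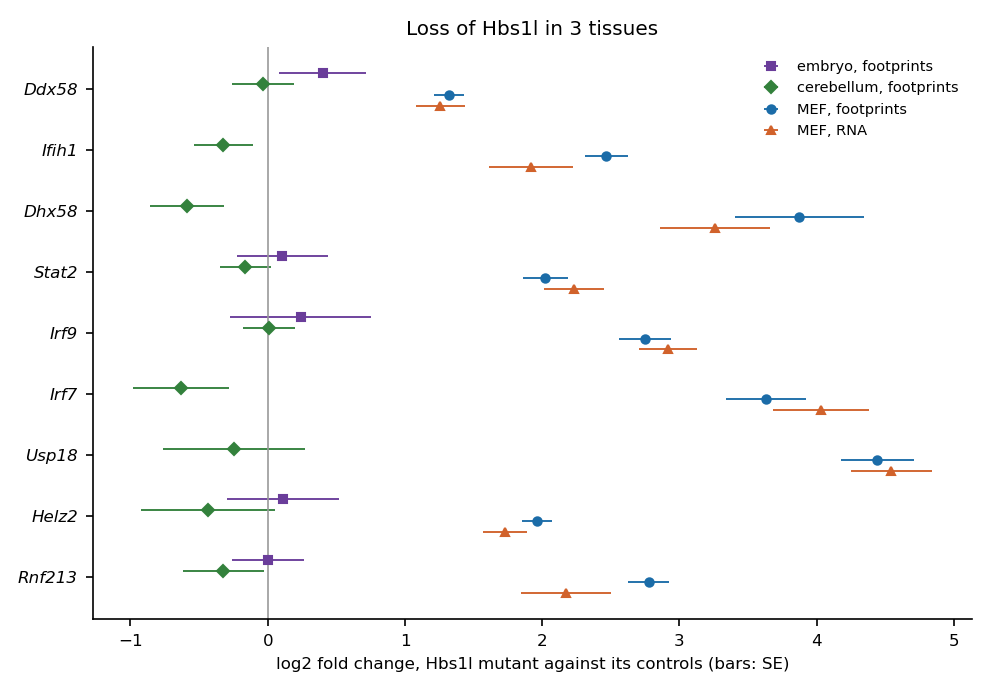
Log2 fold change of each gene after loss of Hbs1l in embryos, cerebella and MEFs, with standard errors as bars and 0 marked. Squares are embryos, diamonds cerebella and circles MEFs, all footprints, and triangles are MEF RNA. Only genes that passed the filter are drawn, 5 of 9 in embryos. Footprint values of embryos and cerebella lie between -0.63 and 0.40, and those of MEF footprints between 1.32 and 4.44. The differences between tissues were not tested.

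Control tissues differed in the starting level of these genes. With all control footprint libraries scaled together, and MEF controls summed over batches, MEFs had the highest mean for 7 of 9 genes and the cerebellum for Stat2 and Dhx58. Ddx58 was at 54.2 ± 7.35 CPM in MEFs, 7.29 ± 0.51 in embryos and 4.68 ± 0.59 in cerebellum (SD, n = 3), with no overlap between neighbours in this order. Rnf213 was at 103 ± 14.5, 50.2 ± 24.7 and 16.5 ± 4.56 CPM, also without overlap. Stat2 took a different order, 31.5 ± 3.75 CPM in cerebellum, 16.1 ± 2.99 in MEFs and 6.56 ± 1.51 in embryos. Usp18 was between 1.08 and 1.96 CPM on average in the 3 tissues, and its neighbours overlapped. Tissue, age, strain and batch cannot be told apart in these values.

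A list of 59 other genes of the pathway was counted beside the members. Of those tested in footprints, 17 of 49 were higher and 3 lower in Hbs1l-/- MEFs (17.4% and 16.7% of all genes), 29 of 50 higher and 1 lower in Pelo-/- (22.9% and 21.2%) and 17 of 49 higher and 4 lower in the libraries labelled Upf2-/- (22.3% and 21.1%). In RNA 19 of 51 were higher and 0 lower in Hbs1l-/- (12.7% and 10.4% of all genes). In Pelo-/- RNA 8 of 50 were higher and 8 lower, about the shares of all genes (15.5% and 16.6%), and in RNA labelled Upf2-/- 8 of 51 were higher and 3 lower (13.2% and 6.76%). None of the 59 was called by edgeR in embryos (39 tested, where 0.92% of all genes were higher and 0.955% lower). None was called in cerebella either (49 tested, 0.0554% and 0.00693% of all genes). The footprint medians over the list were 0.17, 0.38 and 0.18 on the log2 scale, against -0.01, 0.00 and 0.00 over all genes tested.

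The interferon genes themselves were near 0 counts. Ifnb1, the interferon that fibroblasts make first, had 6, 7 and 20 footprint counts in the 3 Pelo-/- libraries and 0 in their controls, where a count of 0 allows up to 3 of the 35417992 counts. The sum in the other mutants was 1 in Hbs1l-/- and 2 in the libraries labelled Upf2-/-. RNA of Ifnb1 was 0 in every control, Pelo-/- and labelled Upf2-/- library and 4 estimated counts in 1 Hbs1l-/- library. None of the 7 interferon genes on the list passed the filter. The receptor chain Ifnar1 had footprints of 43.8 ± 0.61 CPM in Hbs1l-/-, 50.9 ± 4.23 in Pelo-/- and 52.1 ± 1.78 in the libraries labelled Upf2-/- (SD, n = 3), against 48.6 to 50.2 CPM on average in their controls, and none of these differences was called. Its RNA was called higher in Pelo-/- (52.5 ± 2.09 CPM) and in the libraries labelled Upf2-/- (51.0 ± 2.48 CPM) against 38.6 ± 1.69 CPM in controls.

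Tyk2 footprints were not called in any mutant, while its RNA was called higher in the libraries labelled Upf2-/- (35.2 ± 4.15 against 21.8 CPM). The other chain, Ifnar2, was higher in Pelo-/- footprints (30.4 ± 1.06 against 23.6 CPM) and was not called in those of the other mutants. The kinase Jak1 was higher in footprints in Hbs1l-/- (368 ± 21.8 against 311 CPM) and Pelo-/- (367 ± 18.2 against 309 CPM), and was not called in the libraries labelled Upf2-/-. The factor Irf3, which acts below the sensors, was higher in footprints in Pelo-/- (45.4 ± 1.95 against 37.7 CPM) and in the libraries labelled Upf2-/- (45.7 ± 0.86 against 39.3 CPM), and was not called in those of Hbs1l-/-, where its RNA was called higher (49.9 ± 3.55 against 39.6 CPM). The adaptor Mavs and the kinase Tbk1 also act below the sensors. Mavs footprints were lower in Pelo-/- (39.9 ± 1.02 against 46.2 CPM) and were not called in the other mutants, and Tbk1 footprints were not called in any of the 3. Further genes of the list with large footprint changes were Isg15 (565 ± 119 against 8.24 CPM in Pelo-/-), the Z-form nucleic acid sensor Zbp1 (25.0 ± 10.99 against 0.170 CPM in Pelo-/-) and Uba7, the enzyme that activates ISG15 (9.03 ± 3.28 against 2.25 CPM in Hbs1l-/-). In the 2 Pelo-/- RNA libraries, Eif2ak2, the RNA-activated kinase PKR, was lower (5.03 ± 0.51 against 12.4 CPM). Its footprints were not called lower in Pelo-/-. Ptpn2 (7.28 against 15.2 CPM) and Rnaseh2b (6.70 against 13.1 CPM) were lower in Pelo-/- RNA too. In that RNA 8 genes of the list were lower and 8 higher.

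Most tested markers of macrophages, and of fibroblasts themselves, were higher in the same footprint comparisons as the members. Of the 10 fibroblast markers, 8 were higher and 1 lower in Hbs1l-/-, 7 and 1 in Pelo-/- and 7 and 2 in the libraries labelled Upf2-/-. Their summed footprints were 45940 to 48630 CPM in Hbs1l-/- and 43770 to 47660 CPM in its controls, and 46230 to 48530 CPM in Pelo-/- and 43890 to 47450 CPM in its controls, so that both pairs overlap. In the libraries labelled Upf2-/- they were 48280 to 52320 CPM, above the 44180 to 48170 CPM of the controls. In RNA 5 fibroblast markers were higher and 1 lower in Hbs1l-/-, 2 and 1 in Pelo-/-, and 0 and 1 in the libraries labelled Upf2-/-. Their summed RNA was 19920 to 20670 CPM in Pelo-/-, above the 11990 to 15030 CPM of the controls, while the sums in Hbs1l-/- (13640 to 18480 CPM) and in the libraries labelled Upf2-/- (11110 to 12280 CPM) overlapped with the controls. Of the 12 macrophage markers, 8 of 11 tested were higher in Hbs1l-/-, 11 of 11 in Pelo-/- and 6 of 10 in the libraries labelled Upf2-/-, and none was lower. Their summed footprints were 180 to 261 CPM in Hbs1l-/- against 102 to 136 CPM in its controls, 304 to 438 CPM in Pelo-/- against 99.6 to 137 CPM, and 149 to 170.5 CPM in the libraries labelled Upf2-/- against 96.4 to 135 CPM. In RNA 8 of 12 were higher in Hbs1l-/- (112 to 164 CPM against 55.9 to 88.5 CPM in controls) and 0 of 12 in Pelo-/- (70.1 to 106 CPM) and in the libraries labelled Upf2-/- (52.4 to 66.7 CPM). All 12 markers had counts in every MEF group. Of the 9 endothelial markers, 3 of 5 tested were lower in Hbs1l-/- footprints, 3 of 6 lower and 1 higher in Pelo-/-, and 2 of 5 lower and 1 higher in the libraries labelled Upf2-/-, with median log2 fold changes of -0.65, -0.91 and -0.14. All these marker counts stand against 17.4% of all genes higher and 16.7% lower in Hbs1l-/- footprints, 22.9% and 21.2% in Pelo-/- and 22.3% and 21.1% in the libraries labelled Upf2-/-, and against 12.7% and 10.4%, 15.5% and 16.6%, and 13.2% and 6.76% in RNA in the same order. The part of any of these cell types in the members' values was not tested.

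**Figure D4:**
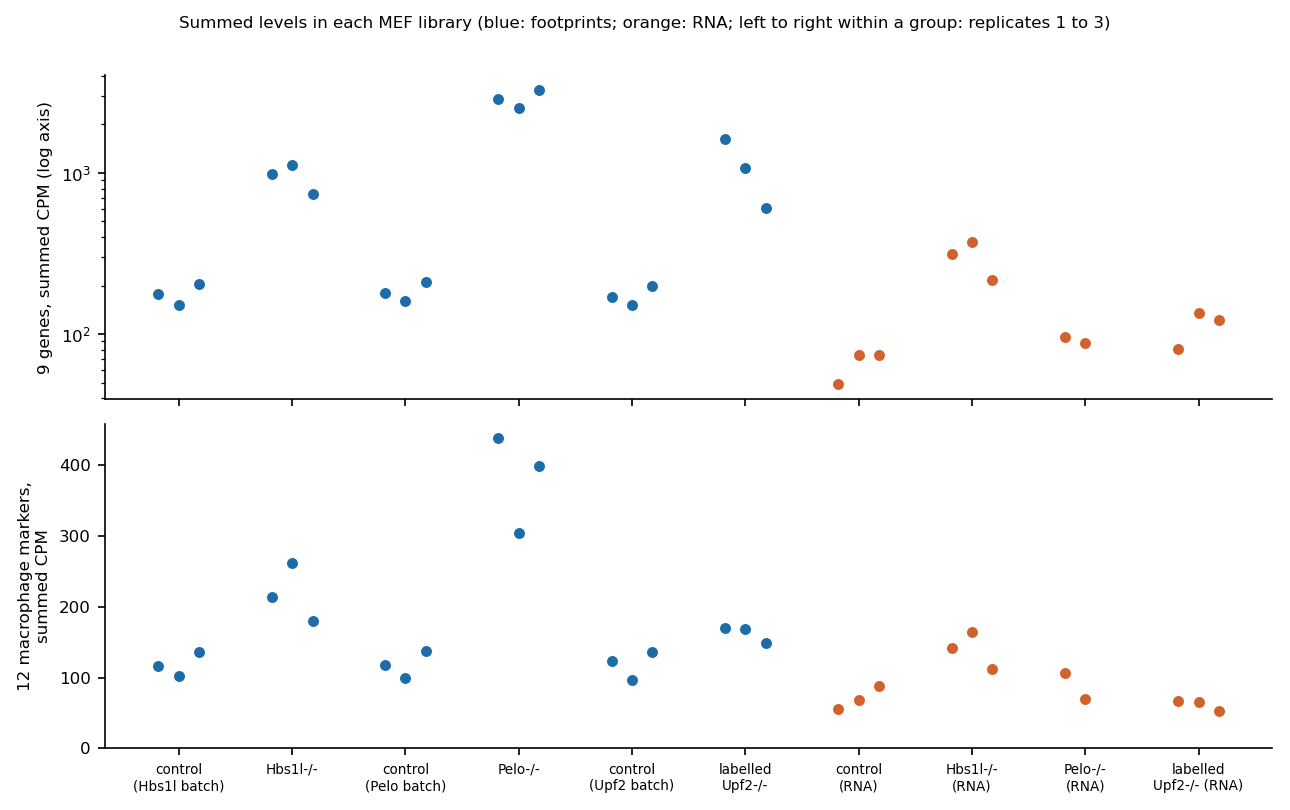
Summed CPM of the 9 genes (upper panel, log axis) and of the 12 macrophage markers (lower panel, linear axis from 0) in each MEF library, footprints in blue and RNA in orange, with footprint controls left of the mutant of the same batch. Footprint sums of the 9 genes reach 2516 to 3271 CPM in Pelo-/- MEFs and RNA sums 216 to 374 CPM in Hbs1l-/- MEFs, and the marker sums are highest in the same 2 mutants.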

How the data were processed

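The authors deposited whole-number footprint counts per gene, made by clipping adapters, removing structural RNA with bowtie2 2.2.3, mapping to mm10 with hisat2 2.1.0 and counting on Gencode M24 coding sequence with featureCounts. For RNA the authors deposited kallisto 0.42.4 estimated counts and TPM for each transcript. These were summed over the transcripts of a gene and rounded to whole numbers. Each mutant was compared with the controls of its own batch with edgeR 4.0.16 in R 4.3.3 (filterByExpr with a minimum count of 10, TMM, quasi-likelihood test, Benjamini-Hochberg over all genes tested, threshold 0.05), with histone genes left out of footprints and TE. TE was an interaction term of genotype with assay, with TMM factors from each assay alone. The SE of a log2 fold change was derived from the edgeR test, as its absolute value divided by the square root of the F statistic. DESeq2 1.42.0, RLE factors, no filter, a replicate block, protein-coding transcripts alone and each library left out in turn were the alternatives. The fits were also run on simulated counts, for the Pelo comparisons alone and with changes placed only in well-counted genes. Members with few control counts, such as Dhx58, were not covered by that run. The members and lists were chosen with earlier results of these data known, all 9 members are named in every comparison, and of the pathway list 9 fixed genes and up to 3 further called genes with the largest change were eligible for naming. Replicates are libraries that the labels call separate. The limit for a count of 0 covers counting error only. Positions and coding lengths come from Gencode M21 on GRCm38, and promoters from RefSeq. One gene of the pathway list is not reported here.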

Additional observations from a re-analysis of the deposited data

Results flagged for a closer look

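Ifih1 RNA had log2 fold changes of opposite sign in MEFs that lack Pelo and MEFs that lack Hbs1l. The log2 fold change was -1.06 in Pelo-/-, with both libraries under the lowest control, and 1.92 in Hbs1l-/-, with all 3 libraries above the highest control. The call in Pelo-/- was lost with a replicate block (-0.95) and in 4 of the 5 fits that leave out a library (without either Pelo-/- library or without control replicate 2 or 3), with values of -1.23 to -0.90 over the 5. The 2 comparisons share their 3 control libraries, and the difference between them was not tested.

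Dhx58 and Irf7 footprints had fold changes of opposite sign in the Hbs1l cKO cerebellum, where neither passed the threshold, and in Hbs1l-/- MEFs. Dhx58 had a log2 fold change of -0.59 in the cerebellum, where all 3 mutant libraries lay under the controls, and 3.87 in MEFs. With a library left out the MEF value ranged from 3.41 to 5.35, the highest without control replicate 1. Irf7 had -0.63 in the cerebellum and 3.63 in MEFs, again with no overlap in either tissue. Both cerebellar differences rest on 2.12 CPM or less, and the differences between tissues were not tested.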

How the results depend on the processing

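The 9 genes kept their footprint calls and directions in the 3 MEF mutants, and the Hbs1l-/- RNA calls and Pelo-/- TE calls, under every alternative run. RNA in Pelo-/- rests on 2 libraries, embryo values of tested members on as few as 7 counts a library and TE on separate batches. Of the 9 members 3 were called in Pelo-/- RNA, and 2 or 3 with a control library left out, not always the same genes. With a library left out, TE calls in the libraries labelled Upf2-/- ranged from 4 to 9. Changes with no stated cause below were not tested for one.

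Over all genes, calls in embryos (214) became 432 with DESeq2, 703 without the filter and 28 to 2309 with a library left out. In cerebella (9) they became 484, 16 and 0 to 560. In RNA, leaving out a library gave 1817 to 2663 for Hbs1l-/- (3542), 1506 to 4802 for Pelo-/- (4727) and 1800 to 3201 for the libraries labelled Upf2-/- (3194). In TE it gave 0 to 67 for Hbs1l-/- (4, with 334 by DESeq2 and 1 with protein-coding transcripts alone) and 1507 to 2840 for the libraries labelled Upf2-/- (2446).

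The replicate numbers did not pair the samples: in no comparison did every same-numbered pair of deviations correlate over 0.1, and all samples correlated best with their own number in embryos only (3 of 3), as a hint from the data. With a replicate block, calls over all genes became 564 in embryos, 0 in cerebella, 2955 in Pelo-/- RNA and 1 in Hbs1l-/- TE. In Pelo-/- RNA the block ended the call on Ifih1 (-0.95), added one on Irf9 (0.87) and turned Ddx58 to 0.072, in Hbs1l-/- TE it turned Usp18 to 0.086, and in TE of the libraries labelled Upf2-/- it ended that on Irf7 (1.81). Counted per alternative, those that leave out no library ended 3 member calls in TE of the libraries labelled Upf2-/-. They ended 1 and added 2 in Pelo-/- RNA.

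Small log2 fold changes that passed no threshold changed sign. Irf9 in cerebella was -0.0035 with DESeq2 and -0.00034 with RLE factors, Irf7 in Pelo-/- RNA -0.26 with protein-coding transcripts alone, and Ddx58 in RNA labelled Upf2-/- 0.017 without the filter. With a library left out, embryo values ranged from -0.058 to 0.21 (Stat2), -0.21 to 0.38 (Helz2) and -0.20 to 0.50 (Rnf213), and cerebellar values from -0.23 to 0.11 (Ddx58), -0.071 to 0.13 (Irf9), -0.59 to 0.15 (Usp18) and -0.85 to 0.0088 (Helz2). RNA in Pelo-/- ranged from -0.17 to 0.061 (Ddx58), -0.63 to 0.75 (Irf7) and -0.16 to 0.31 (Usp18), and RNA labelled Upf2-/- from -0.17 to 0.056 (Ddx58) and -0.054 to 0.42 (Rnf213). TE in Hbs1l-/- ranged from -0.032 to 0.26 (Ddx58), -0.42 to 0.049 (Stat2), -0.41 to 0.092 (Irf9), -0.93 to 0.19 (Irf7) and -0.30 to 0.23 (Usp18).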
